A study of Equus caballus with 17 samples.

Results

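The let-7 family of microRNAs was followed through the horse (Equus caballus) testis and in sperm. The 8 members were picked by name. Among 274 annotated mature miRNAs they are eca-let-7a, eca-let-7c, eca-let-7d, eca-let-7e, eca-let-7f, eca-let-7g and eca-miR-98, written here without the prefix, and among 1461 predicted hairpins the entry 6_4351986, which holds let-7i. That entry is called the let-7i hairpin here. Small RNA libraries came from whole testis at 4 stages, with 3 libraries each labelled Infant, Pre-puber and Puber and 4 labelled Adult, and from 4 libraries of Sperm. The labels give no breed, age, genotype or treatment for any group, and name no control group. They do not say whether libraries of a group, or the libraries 31a and 31b (Infant) and 3a and 3b (Pre-puber), had different animals as their source. The p-values therefore speak to the spread among these libraries, which may be technical. Sperm and testis RNA differed in DNase treatment and purification, so preparation and tissue cannot be told apart in any comparison of Sperm with testis.

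MicroRNAs are short RNAs cut from hairpin precursors, and they guide Argonaute proteins to messenger RNAs that pair with the seed near their 5′ end. Members of let-7 share 1 seed and differ at few other positions. They are known for repressing LIN28, RAS and HMGA2 messages and for rising as cells leave the embryonic state, while LIN28 proteins bind let-7 precursors and hold back their maturation. In the mammalian testis, LIN28 marks undifferentiated spermatogonia.

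The let-7i hairpin is shown because it carries the most let-7 counts of Infant testis and was not among the annotated members. It lies on chromosome 6, plus strand, at chr6:80187889-80187965 in the coordinates deposited by the authors, whose notes name the build EquCab3.0. The seed, bases 2 to 8, is in capitals, and the first 22 bases are those of mature let-7i.

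let-7i hairpin: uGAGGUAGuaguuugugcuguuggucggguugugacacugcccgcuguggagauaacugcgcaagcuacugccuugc

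The seed letters GAGGUAG occurred in 4 of 1461 predicted hairpins (0.274%), searched on the deposited strand only, and stood at bases 2 to 8 in the let-7i hairpin alone. The deposited count of the hairpin may include both arms, as the counting program is not given. The annotated members are mature miRNAs, so the let-7i count may be unlike theirs wherever they are ranked together. In RefSeq (TB-T2T assembly), used for names and neighbours only, all 7 annotated members matched an entry. Gene neighbours within 50 kb place let-7a with miR-100 and miR-125b, let-7c with miR-99a-2 and miR-125b-2, let-7e with miR-99b and miR-125a, let-7d beside let-7f, and let-7g beside miR-135a. A separate let-7a gene (let-7a-2) has no miRNA neighbour there, and the table lists both let-7a genes with nearly the same counts, so mature let-7a cannot be assigned to either. In the order of gene starts miR-98 follows HUWE1 and precedes HSD17B10, which does not tell whether it lies inside a gene.

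Annotated miRNA counts ran from 1.48 to 13.1 M per library and were highest in Infant and Pre-puber and lowest in Sperm, so depth moved with the group, and its part in the results was not tested. Even in Sperm, 7 of the 8 members held at least 141 counts in every library, while miR-98 had 45, 45, 13 and 37. Levels below are in CPM, counts scaled to a common total of annotated miRNA counts, after TMM scaling. The factors of that scaling were 0.582 to 0.830 in Infant and 0.957 to 1.56 in Adult, so levels and plain shares of counts can differ. Tests are edgeR quasi-likelihood tests with Benjamini-Hochberg adjustment over all miRNAs, or over all predicted hairpins for the let-7i hairpin, called at adjusted p under 0.05. Some marker miRNAs of other cells moved with the groups. The endothelial marker was not called in any testis comparison. Of 4 blood cell markers, 1 was called lower in Adult than in Infant, and none was called between neighbouring stages. The summed level of 3 germ cell markers (of 4 listed) was 17.6 to 52.8 CPM in Infant and 44.7 to 3294 in Pre-puber. It was 11945 to 22802 CPM in Puber and 40182 to 50378 in Adult. The summed level of 3 stromal and smooth muscle markers (of 6 listed) was 32329 to 51209 CPM in Infant and 31496 to 37770 in Pre-puber, against 23655 to 31471 in Puber and 14974 to 18816 in Adult. From Puber to Adult, mean miR-199a-5p went from 15449 to 9365 CPM and mean miR-199b-5p from 6605 to 1841. The remaining marker, miR-145, did not share this fall (5280 to 5442 CPM). It was not called over all 4 stages (adjusted p = 0.386, edgeR). Of the 3 markers, 2 were called lower in Adult than in Infant. Pearson correlations of log2 CPM across miRNAs were 0.944 and 0.929 for Pre-puber 14 with Pre-puber 3a and 3b, which gave 0.986 with each other. In Infant, 31a and 31b gave 0.992 with each other, and 0.965 and 0.972 with Infant 30. In both groups the libraries that share a title number were the most alike, and they may share a source. Libraries with different numbers reached like values in other groups, at 0.993 for Adult 13 with Adult 4 and 0.987 for Puber 10 with Puber 11. These correlations therefore do not tell whether a source was shared. No marker in the table was at 0 in a whole group, and the part of these cells in the let-7 results was not tested. In bulk tissue, fewer cells of a type and less RNA per cell cannot be told apart.

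The family took an overlapping share of counts at every testis stage and a smaller share in Sperm. Summed over the 8 members, let-7 held 26.2% ± 3.97 (SD, n = 3) of annotated plus let-7i counts in Infant. The share was 30.3% ± 2.12 (n = 3) in Pre-puber and 30.7% ± 3.61 (n = 3) in Puber, and 27.8% ± 3.74 (n = 4) in Adult. These groups overlapped, with single libraries from 22.2% (Infant 31a) to 34.8% (Puber 10). In Sperm the share was 6.25% ± 1.36 (n = 4), at 6.87%, 7.84%, 4.83% and 5.49%, and no Sperm library reached a testis library. A share depends on all other counts, so it does not tell by itself whether let-7 fell. In Sperm miR-191a averaged 705756 ± 356778 CPM after TMM scaling, against 6955 ± 1404 in Adult. let-7a, let-7g and let-7f were not called lower in Sperm on TMM levels (below). The 5 abundant members (let-7a, let-7c, let-7f, let-7g and the let-7i hairpin) held 95.6% to 98.2% of the family in every library.

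**Figure D1:**
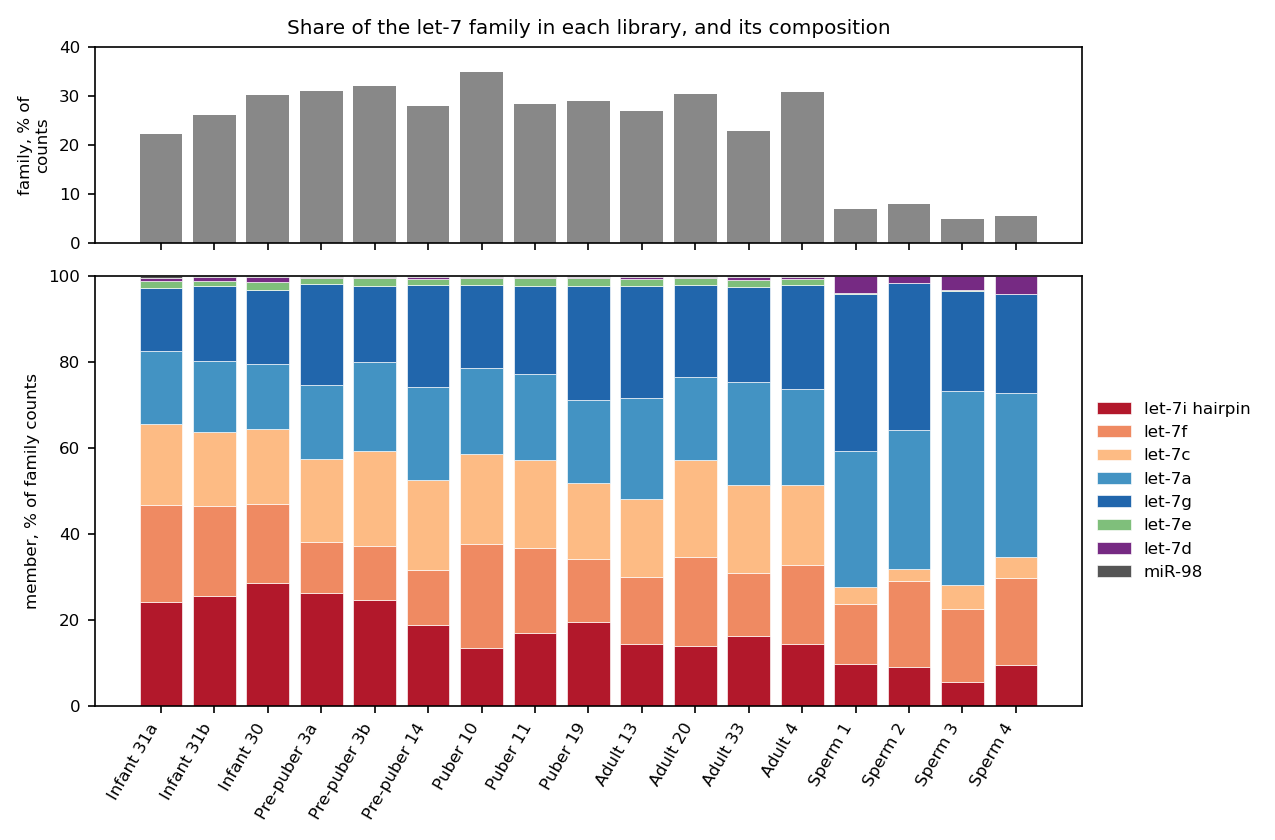
Upper panel: summed let-7 counts in percent of annotated plus let-7i counts, 1 bar per library. Lower panel: each member in percent of the family's counts in that library. The let-7i hairpin part shrinks from 24.3% to 28.7% in Infant to 5.65% to 9.72% in Sperm, and miR-98 is too small to be seen.

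Shares within the family need no scaling between libraries, and they are given as a description. The let-7i hairpin was the largest member in every Infant library, with 24.3%, 25.7% and 28.7% of the family. In Pre-puber it held 26.2%, 24.7% and 18.9%, the largest mean (23.3% ± 3.86) but within the spread of let-7g (21.5% ± 3.42), and in Pre-puber 14 let-7g, let-7a and let-7c were above it. In Puber it held 13.4%, 16.9% and 19.5%, and in Adult 14.5%, 14.1%, 16.3% and 14.4%, and by its mean it was the smallest of the 5 abundant members at both stages. All Adult libraries were below all Infant libraries, while neighbouring stages overlapped. Over the same stages let-7a went from a mean of 16.3% ± 0.868 in Infant to 22.3% ± 2.12 in Adult and let-7g from 16.3% ± 1.54 to 23.4% ± 2.06, in both cases with no overlap between Infant and Adult. The order of the abundant members, from the largest mean share, began with let-7i and let-7f in Infant, followed by let-7c, then by let-7a and let-7g. In Adult let-7g and let-7a led, followed by let-7c, then by let-7f and let-7i. The neighbours let-7a and let-7g (both 16.3% in Infant) and let-7f and let-7c (20.5% ± 2.12 and 17.8% ± 1.01) did not differ beyond their spread. In Adult the libraries of every pair of neighbours in this order overlapped.

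let-7f had a pattern of its own. Its share was 22.4%, 20.9% and 18.2% in Infant, 11.9%, 12.6% and 12.7% in Pre-puber, 24.2%, 19.9% and 14.7% in Puber and 14.6% to 20.7% in Adult. The Pre-puber libraries were below every library of Infant, Puber and Adult. let-7c stayed between 17.1% and 22.4% in all testis libraries. let-7d, a minor member, held 0.720%, 0.740% and 0.974% in Infant and 0.333%, 0.182% and 0.399% in Pre-puber, with no overlap.

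Adult against Infant testis spans the whole series of stages. On TMM levels, 5 of 8 members were lower in Adult and none was higher, while on plain totals 2 were lower and 2 higher. The 5 lower ones were let-7d, the let-7i hairpin, miR-98, let-7f and let-7e, and let-7a, let-7c and let-7g were not called. The calls of let-7e and let-7f were lost with DESeq2 size factors, DESeq2, no filter on low counts or same-numbered libraries summed (adjusted p from 0.0509 to 0.135), each of which left 3 members, and with the lowest entry of each miRNA that of let-7f alone was lost (0.0521). Of all 184 annotated miRNAs tested, 51.6% were called and 25.5% were called lower, and of 733 predicted hairpins 93.9% were called and 2.05% lower. On TMM levels let-7d, let-7f, miR-98 and the let-7i hairpin were lower in Adult without overlap. Among annotated miRNAs 50% did not overlap in either direction and 23.9% were lower without overlap. Among predicted hairpins these shares were 92% and 2.46%. The median log2 fold change of the members was -0.94, against -0.14 over the annotated miRNAs tested.

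The let-7i hairpin had 98137, 106524 and 114337 CPM in Infant, 78215, 96247 and 63281 in Pre-puber, 57076, 49206 and 45134 in Puber and 28502, 46685, 24776 and 33359 in Adult. On these TMM levels Infant, Pre-puber and Puber libraries stood in separate ranges, and Puber and Adult overlapped through Adult 20. In RPM (reads scaled to the library total), the hairpin had 40314 to 72231 in Infant and 41145 to 64681 in Pre-puber. It had 37714 to 44318 in Puber and 26853 to 34250 in Adult, so only Adult stood apart. With no scaling beyond the total, the log2 fold change of Pre-puber over Infant was 0.034. Adult was 3.19-fold lower than Infant (log2 fold change -1.67 ± 0.22 SE, adjusted p = 1.29e-05).

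miR-98, an X-linked member in mammals, had 1963, 1621 and 1558 CPM in Infant, 933, 1437 and 914 in Pre-puber, 1036, 818 and 595 in Puber and 576, 698, 447 and 533 in Adult. The highest Adult library was below the lowest Infant library, and each pair of neighbouring stages except Infant and Pre-puber overlapped. The fold change was 3.04-fold lower (log2 fold change -1.61 ± 0.29, adjusted p = 0.000417).

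let-7d had 2906, 3067 and 3881 CPM in Infant and between 711 and 1336 CPM in all 10 later testis libraries. Its drop lay between the first stages: Pre-puber was 3.24-fold lower than Infant (log2 fold change -1.70 ± 0.31, adjusted p = 0.00202), and Adult was 3.46-fold lower than Infant (-1.79 ± 0.28, adjusted p = 0.000209). Puber and Adult levels overlapped Pre-puber levels, with means and SDs of 892 ± 213 CPM in Puber, 949 ± 103 in Adult and 1013 ± 313 in Pre-puber.

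let-7f had 90548, 86436 and 72597 CPM in Infant, 35364, 49312 and 42590 in Pre-puber, 102782, 57858 and 34153 in Puber and 30431, 68709, 22176 and 42468 in Adult. The Puber libraries covered the whole range from below Pre-puber to above Infant. Adult was 2.03-fold lower than Infant (-1.02 ± 0.39, adjusted p = 0.0443), with no overlap. let-7e, at 6763 ± 1221 CPM (n = 3) in Infant and 3726 ± 1310 (n = 4) in Adult, was 1.82-fold lower (-0.86 ± 0.33, adjusted p = 0.0421), and its groups overlapped through Adult 20.

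**Figure D2:**
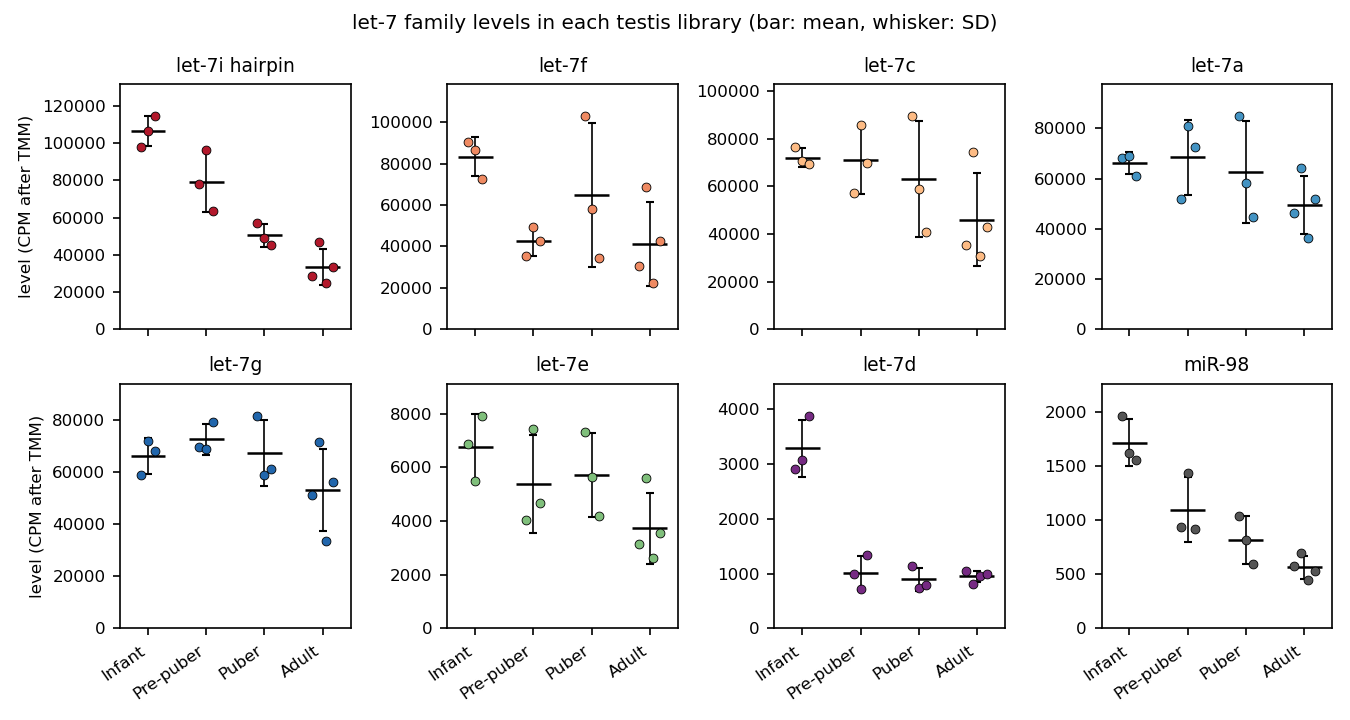
Level of each member in CPM after TMM scaling, 1 point per testis library, with the mean (bar) and SD (whisker) of each stage; each panel has its own axis from 0. The let-7i hairpin, miR-98 and let-7c have lower means at each later stage, though let-7c was not called. let-7d has its high values in Infant only, and let-7f has its widest spread in Puber.

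The other abundant members were not called. let-7a had 66097 ± 4470 CPM in Infant and 49599 ± 11545 in Adult (log2 fold change -0.41 ± 0.27, adjusted p = 0.201). let-7g had 66076 ± 6731 and 52960 ± 15670 CPM (-0.32 ± 0.25, adjusted p = 0.294), and let-7c 72132 ± 3828 and 45956 ± 19564 CPM (-0.65 ± 0.33, adjusted p = 0.113). Adult 20 had the highest Adult level of every member except let-7d, of which it had the lowest, and Adult 33 had the lowest level of every member except let-7d. Without Adult 20, let-7c was also called (-0.9963, adjusted p = 0.0110) and 6 members were lower. Without Infant 31a, Infant 31b, Puber 11, Adult 13, Adult 33 or Adult 4, 3 members were called, and let-7e and let-7f were not. Over all 13 runs with 1 library left out, let-7e lost its call in 8 and let-7f in 6. Over the 11 other settings, let-7e lost it in 5 and let-7f in 6, and let-7c gained a call in 3.

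The scaling between libraries decided the direction of 3 members. With no scaling beyond the total, the median of all annotated miRNAs between Adult and Infant moved from -0.14 to 0.82 on the log2 scale, and with upper-quartile factors to -0.52. On plain totals let-7a (0.49, adjusted p = 0.0279) and let-7g (0.55, adjusted p = 0.0419) were higher in Adult, let-7c was at 0.20 (adjusted p = 0.418), and let-7d (-0.86, adjusted p = 0.0512), let-7e (-0.015) and let-7f (-0.17) were not called. The let-7i hairpin (-0.81, adjusted p = 0.00112) and miR-98 (-0.69, adjusted p = 0.0432) were lower in Adult under all 4 scalings.

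**Figure D3:**
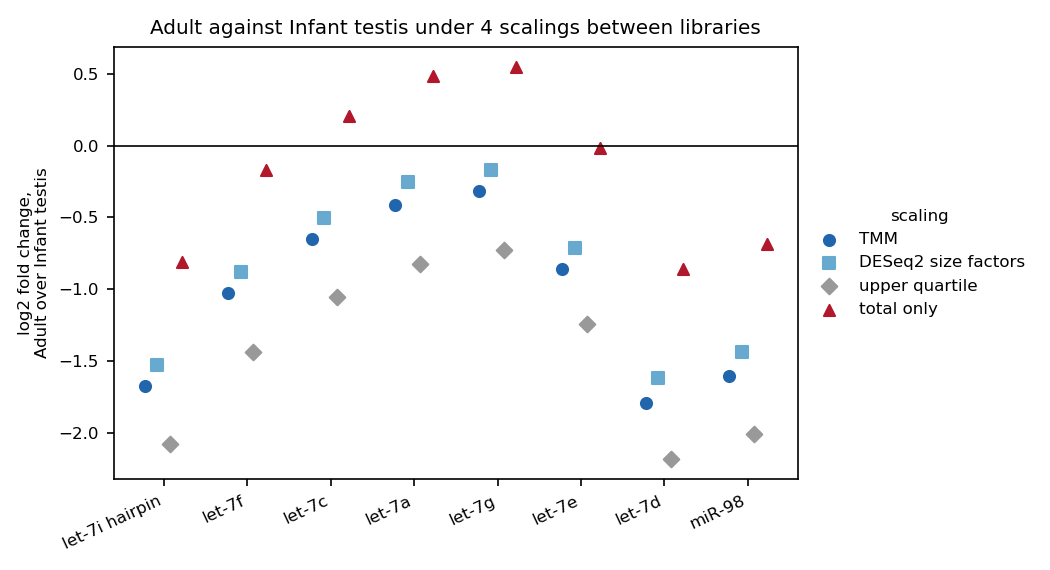
Log2 fold change of each member, Adult over Infant testis, under TMM, DESeq2 size factors, upper-quartile factors and the plain total. All points of the let-7i hairpin, let-7f, let-7e, let-7d and miR-98 lie below 0, and let-7a, let-7c and let-7g lie above 0 only on the plain total.

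Between neighbouring stages few members passed the test. From Infant to Pre-puber only let-7d was called, as described above, while 23.9% of annotated miRNAs were called in either direction and 8.15% were called lower, and 71.1% of predicted hairpins were called. Without Pre-puber 14 the let-7d value was -1.92 (adjusted p = 0.00149). On TMM levels let-7d, let-7f, miR-98 and the let-7i hairpin did not overlap between these stages and were lower in Pre-puber. In either direction 35.9% of annotated miRNAs and 41.3% of predicted hairpins did not overlap. Lower without overlap were 17.4% of annotated miRNAs and 1.5% of predicted hairpins. let-7f (-0.97 ± 0.43, adjusted p = 0.13), miR-98 (-0.65 ± 0.31, adjusted p = 0.154) and the let-7i hairpin (-0.42 ± 0.23, adjusted p = 0.106) missed the threshold, and with only these 6 libraries in the fit let-7f passed it (-1.07, adjusted p = 0.0324). The members' median log2 fold change was -0.38, against 0.16 over all annotated miRNAs.

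From Pre-puber to Puber the let-7i hairpin alone was called, 1.57-fold lower in Puber (-0.65 ± 0.23, adjusted p = 0.0327). Among annotated miRNAs 1.09% were called, all of them higher, and among predicted hairpins 54.6% were called and 0.136% lower, which is the let-7i hairpin itself. Its TMM level was also the 1 member level without overlap. In either direction 26.6% of annotated miRNAs and 77.5% of predicted hairpins did not overlap, and 13.6% and 1.09% were lower without overlap. With the hairpin fitted and adjusted among annotated miRNAs its adjusted p was 0.222, and with DESeq2 it was 0.151, so the call did not hold in either. It was also lost with same-numbered libraries summed (adjusted p = 0.11) and with the groups alone (0.108). Without Pre-puber 14 it held (-0.77, adjusted p = 0.0107). It was lost without Pre-puber 3a, Pre-puber 3b, Puber 11, Puber 19 or Adult 4 (adjusted p from 0.0614 to 0.117). The members' median was -0.15, against -0.020 over all annotated miRNAs.

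From Puber to Adult no member passed edgeR's test, and none of the annotated miRNAs or hairpins did (0%). At an unadjusted p under 0.05, 1 member was lower, the let-7i hairpin (-0.60 ± 0.21, unadjusted p = 0.0127, adjusted p = 0.963 by edgeR), against 18.5% of annotated miRNAs and 2.32% of predicted hairpins. DESeq2 and limma-voom also called 0 members. The median was -0.50 for the members and -0.0027 for annotated miRNAs, let-7d being the single member with a positive value (0.090 ± 0.28). Over all 4 stages at once, let-7d (adjusted p = 0.000465), miR-98 (0.00263) and the let-7i hairpin (6.78e-05) were called, and on plain totals miR-98 was not (0.146, edgeR). With TMM scaling 47.8% of annotated miRNAs and 93.2% of predicted hairpins were called.

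Several let-7 genes are made together with miR-99, miR-100 and miR-125 in mammals, so these cluster partners were read beside them. Of 6 listed partners, 5 were in the table. Between Infant and Adult, 3 of 5 were lower in Adult and none higher: miR-99a (6.94-fold, log2 fold change -2.80 ± 0.34, adjusted p = 9.46e-05), miR-125b-5p (-1.41 ± 0.31, adjusted p = 0.00198) and miR-125a-5p (-1.47 ± 0.48, adjusted p = 0.0232). miR-100 (0.48 ± 0.29, adjusted p = 0.179) and miR-99b (-0.45 ± 0.24, adjusted p = 0.127) were not called.

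Ratios of counts within a library compare neighbours without any scaling. The ratio of let-7c to miR-99a was 0.180, 0.156 and 0.263 in Infant, 0.411, 0.442 and 0.328 in Pre-puber, 0.471, 0.408 and 0.529 in Puber and 0.583, 1.005, 0.871 and 0.881 in Adult. All later testis libraries were above all Infant libraries, and all Adult libraries above all others. miR-99a can also come from other genes, as can let-7a and miR-125b-5p, and the table does not tell their sources apart. The ratio of let-7a to miR-100 averaged 1.67 ± 0.192 (SD) in Infant and 1.07 ± 0.189 in Pre-puber, then 0.910 ± 0.139 in Puber and 0.898 ± 0.0750 in Adult, with Infant above all later testis libraries. Against miR-125b-5p, its other neighbour, the ratio of let-7a ran from 1.32 to 2.40 in Infant and from 2.56 to 6.63 in Adult, with no overlap and in the opposite direction. The ratio of let-7c to miR-125b-5p was 1.49 to 2.68 in Infant and 1.97 to 7.70 in Adult, and that of let-7e to miR-125a-5p 0.342 to 0.912 and 0.411 to 1.95, both with overlap. The ratio of let-7e to miR-99b was 0.708 ± 0.140 in Infant and 0.522 ± 0.0442 in Adult, with overlap, while the Pre-puber libraries (0.621 to 1.05) were above the Adult libraries (0.478 to 0.581). Within the family, the ratio of the let-7i hairpin to let-7g went from 1.61 ± 0.112 in Infant to 0.637 ± 0.0799 in Adult, with no overlap, and the ratio of let-7d to let-7f from 0.0403 ± 0.0115 in Infant to 0.0281 ± 0.0136 in Adult, with overlap.

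**Figure D4:**
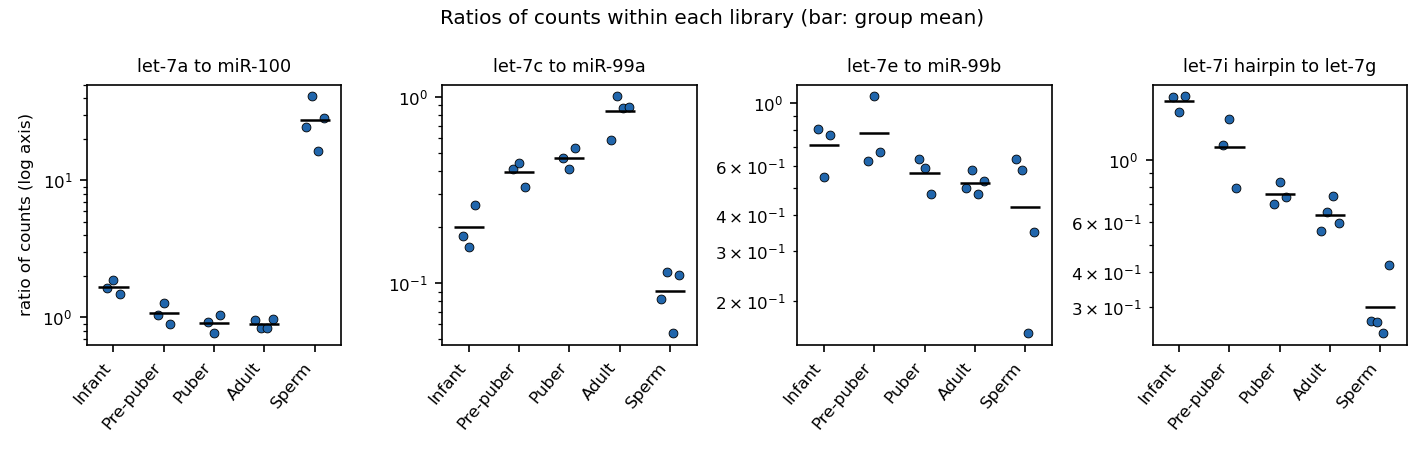
Ratios of counts of let-7 members to a gene neighbour, and of the let-7i hairpin to let-7g, 1 point per library with the group mean as a bar, on log axes that differ between panels. let-7a to miR-100 lies between 0.762 and 1.87 in testis and between 16.4 and 41.1 in Sperm, while let-7c to miR-99a is lowest in Sperm.

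Sperm and Adult testis were compared in a fit of their 8 libraries, scaled on its own, so Adult levels here differ from those above. The TMM factors were 0.484 to 0.639 in Sperm and 1.42 to 2.30 in Adult, so levels and plain shares can differ. In Sperm 5 of 8 members were called: let-7d was higher (without a call on plain totals), and let-7e, miR-98, let-7c and the let-7i hairpin were lower. On TMM levels the same 5 did not overlap between the groups. Calls were common, with 81.5% of annotated miRNAs (42% higher and 39.5% lower) and 65.7% of predicted hairpins (21.9% lower) called, and 74.7% of annotated miRNAs and 52.2% of predicted hairpins without overlap. The median of the members was -1.0, against 0.058 over all annotated miRNAs tested.

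let-7d had 4642, 1919, 2884 and 4733 CPM in Sperm and 810, 544, 647 and 851 CPM in Adult. After TMM scaling every Sperm library was above every Adult library, and the fold change was 4.97 (2.31 ± 0.44, adjusted p = 4.75e-06). In RPM the groups overlapped, as Sperm 2 (947) was below Adult 13 (1088), Adult 33 (1034) and Adult 4 (1013). let-7e, which shares its cluster with miR-99b and miR-125a, had 186 to 213 CPM in Sperm and 1767 to 3774 CPM in Adult, and was 14.2-fold lower (-3.83 ± 0.48, adjusted p = 2.12e-10).

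let-7c had 4427, 3700, 4923 and 5635 CPM in Sperm and 27421, 50091, 20993 and 37139 CPM in Adult, 7.26-fold lower (-2.86 ± 0.42, adjusted p = 1.51e-08). miR-98 had 32.9, 36.8, 16.0 and 49.0 CPM in Sperm and 444, 471, 303 and 460 in Adult, 12.5-fold lower (-3.64 ± 0.55, adjusted p = 3.14e-08). The let-7i hairpin had 11112, 11231, 4992 and 10992 CPM in Sperm, with Sperm 3 far below the others, and 16812 to 31459 CPM in Adult, 2.58-fold lower (-1.37 ± 0.48, adjusted p = 0.0101).

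let-7a (0.10 ± 0.38, adjusted p = 0.807), let-7g (-0.28 ± 0.39, adjusted p = 0.496) and let-7f (-0.63 ± 0.40, adjusted p = 0.136) were not called, and their groups overlapped. let-7a was the most even of them in Sperm, at 39741 ± 2960 CPM (n = 4), against 37051 ± 9162 (n = 4) in Adult. Scaling bears on these 3 and on let-7d: with the plain total the median of all annotated miRNAs moved to -1.61, let-7a (-1.51, adjusted p = 0.000103), let-7g (-1.83, adjusted p = 0.000101) and let-7f (-2.18, adjusted p = 1.17e-05) were lower in Sperm, and let-7d was not called (0.62, adjusted p = 0.193). With DESeq2 size factors let-7f (-1.26, adjusted p = 0.00369) and let-7g (-0.93, adjusted p = 0.0241) were lower and let-7d stayed higher (1.66, adjusted p = 0.000637). let-7e, miR-98, let-7c and the let-7i hairpin were lower in Sperm under all 4 scalings.

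**Figure D5:**
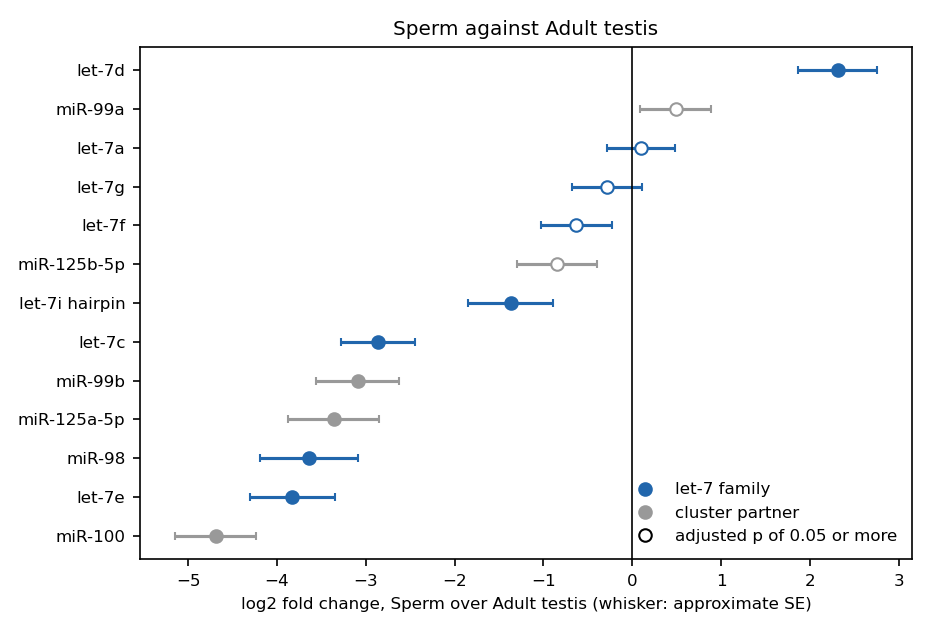
Log2 fold change, Sperm over Adult testis, for the 8 members and 5 cluster partners, with the approximate SE; open points have an adjusted p of 0.05 or more. let-7d stands alone on the right at 2.31, and miR-100 (-4.69) and let-7e (-3.83) are farthest left.

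Shares within the family, which need no scaling, also differed between Sperm and testis. let-7a held 31.7%, 32.1%, 44.9% and 38.1% of the family in Sperm, above every testis library. By its mean (36.7% ± 6.24) it was the largest member there, followed by let-7g (29.2% ± 7.10) with 36.4%, 34.2%, 23.4% and 22.8%. In Sperm 1 and Sperm 2 let-7g was the larger of them. Those neighbours overlapped. let-7c held 3.00% to 5.57% in Sperm, below every testis library, and let-7d 1.55% to 4.16%, above every testis library and 7.01 times the testis mean. let-7e, with 0.163% to 0.218%, and miR-98, with 0.0181% to 0.0430%, were below every testis library, by 9.31 and 10.4 times in the means. let-7f, at 17.7% ± 2.83 (n = 4), overlapped testis, where Adult held 17.3% ± 2.76 (n = 4).

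Beside the members, cluster partners differed between Adult testis and Sperm. Of the 5 partners, 3 were lower in Sperm: miR-100 (25.8-fold, -4.69 ± 0.46, adjusted p = 8.82e-14), miR-125a-5p (-3.36 ± 0.51, adjusted p = 3.98e-08) and miR-99b (-3.09 ± 0.47, adjusted p = 3.71e-08). miR-99a (0.49 ± 0.40, adjusted p = 0.239) and miR-125b-5p (-0.85 ± 0.45, adjusted p = 0.0793) were not called. The ratio of let-7a to miR-100 was 24.6, 41.1, 16.4 and 28.7 in Sperm, against 0.8285 to 0.975 in Adult, and the ratio of let-7c to miR-99a was 0.0903 ± 0.0285 (n = 4) in Sperm, against 0.835 ± 0.178 (n = 4) in Adult. Mature let-7a may also come from let-7a-2, which has no miRNA neighbour, so its ratio to miR-100 need not be that of 1 cluster. The ratio of let-7d to let-7f was 0.192 ± 0.0866 in Sperm and 0.0281 ± 0.0136 in Adult, with no overlap. let-7e and miR-99b were both lower in Sperm, and their ratio, 0.430 ± 0.222, overlapped Adult at 0.522 ± 0.0442.

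Markers of other cells differed beside these results. The 3 stromal markers, all lower in Sperm, summed to 65.8 to 152 CPM in Sperm and 10091 to 14697 CPM in Adult, and the 3 germ cell markers, all higher in Sperm, to 105208 to 359582 and 28793 to 38890 CPM. The single epithelial marker in the table, miR-205 (of 6 listed), had 337 to 1191 CPM in Sperm and 1.27 to 1.60 in Adult, and the liver miRNA miR-122 had 15533 to 25213 and 16.5 to 42.3 CPM. The 4 blood cell markers (of 7 listed) summed to 1466 to 3717 CPM in Sperm and 728 to 3256 in Adult, and the endothelial marker (1 of 2) to 38.2 to 52.9 and 215 to 471 CPM. The 2 sperm markers listed, miR-34c and miR-191a, summed to 504400 to 1157610 CPM in Sperm and 30236 to 39783 in Adult. The part of all these markers in the let-7 results was not tested.

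Across the 13 testis libraries the members varied together to different degrees, given here as Pearson correlations of log2 CPM, with stage and scaling shared by all points and no test. let-7a and let-7c (0.956) and the let-7i hairpin and miR-98 (0.950) were closest. How reads matching several members were assigned is not given, and its part in these correlations was not tested. The lowest value was that of let-7g and let-7d (0.180), and the 5 lowest values all involved let-7d. Among 107 other annotated miRNAs with a mean of at least 50 CPM, those most like the mean of the members were miR-99a (0.935), miR-218 (0.896), miR-211 (0.894), miR-1298 (0.883) and miR-299 (0.868). Their mean levels in Infant and Adult were 380477 and 54815 CPM for miR-99a, 667 and 198 for miR-218, 572 and 58.4 for miR-211, 925 and 60.7 for miR-1298, and 320 and 44.6 for miR-299.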

How the data were processed

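Small RNA was measured by sequencing in 17 horse libraries (13 testis, 4 sperm). The authors deposited a table of whole read counts per entry and RPM (reads scaled to the library total), as the values and column names show; each RPM equalled the count over the column total, within 0.005. RPM was used for that check, and for the ranges of the let-7i hairpin and let-7d that are given in RPM. The submitters' processing notes name Trimmomatic and the build EquCab3.0; the aligner, the counting program and how reads matching several let-7 members were assigned are not given in the sources used here. For each mature miRNA the entry with the highest total was kept. edgeR 4.0.16 (R 4.3.3) was run with filterByExpr, TMM and quasi-likelihood tests on the 13 testis libraries (184 annotated miRNAs) and, apart, on Sperm and Adult (162); predicted hairpins were tested with the same library sizes and factors. SEs derive from the F statistic and are approximate. Alternatives used other scalings, no filter, DESeq2 1.42.0, limma-voom (limma 3.58.1), other features or libraries, and leaving out each library. A separate short edgeR run was checked on simulated counts of 2 groups with known changes, and the full script was not run on simulated data. The columns numbered 4 were told apart by prefix, inferred from the columns numbered 1 and 2. All pairs of libraries within a group differed beyond sampling noise. All 8 members, 6 listed partners and the 5 most alike miRNAs (mean of at least 50 CPM) are named; levels for likeness used a prior count of 2. Members, lists and tests were chosen with earlier results of these data known.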

Additional observations from a re-analysis of the deposited data

Results flagged for a closer look

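In groups of 4 libraries, a sample was picked out when its gap to the nearest other one over the group's range exceeded Dixon's critical value; chance picks about 1 in 20 groups, and 4 of 52 were picked. The let-7i hairpin level of Sperm 3 was 4992 CPM, against 10992 to 11231 CPM in the other Sperm libraries. Its share of the family in Sperm 3 was 5.65%, against 9.09% to 9.72%. let-7e in Sperm 3 held 0.218% of the family, the highest, against 0.163% to 0.172%. The ratio of the let-7i hairpin to let-7g in Sperm 4 was 0.423, the highest, against 0.242 to 0.267. Without Sperm 3, the log2 fold change of the let-7i hairpin, Sperm over Adult, was -1.13 (adjusted p = 0.0481, edgeR).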

How the results depend on the processing

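Called members per comparison changed as follows, with not every setting listed. Over all 4 testis stages, 3 members were called, 2 with no scaling (miR-98 was lost), 8 with all entries in 1 fit, and 3 to 6 when 1 library was left out. For Pre-puber against Infant, the libraries of both groups alone gave 2 in place of 1. For Puber against Pre-puber, 1 was called, 7 with all entries in 1 fit, and 0 with DESeq2, with the let-7i hairpin added to the annotated fit, with same-numbered libraries summed or with the groups alone; leaving out 1 library gave 0 to 1. For Adult against Infant, 5 were called, 8 with all entries in 1 fit, and 3 with DESeq2 size factors, DESeq2, no filter or same-numbered libraries summed (let-7e and let-7f were lost); leaving out 1 library gave 3 to 6. For Sperm against Adult, 5 were called, 7 with no scaling, all of them lower, 7 (6 of them lower) with DESeq2 size factors, DESeq2, all entries in 1 fit or all 17 libraries, and 6 with upper-quartile factors; leaving out 1 library gave 5 to 6. For Adult against Puber every alternative run gave 0. In the fit of all entries the predicted hairpins raised the median of all features between Infant and Adult to 5.64 (log2). Without the let-7i hairpin in the family, let-7f held 27.7% in Infant, 16.2% in Pre-puber and 20.3% in Adult.

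Signs turned for small differences (log2 fold changes). For Pre-puber against Infant they were let-7a at -0.18 with upper-quartile factors and -0.055 with the groups alone; let-7c at 0.43 with no scaling, 0.37 with all entries, 0.0011 with summed libraries and 0.0012 with the lowest entry; let-7e at 0.092 with no scaling and 0.11 with all entries; let-7g at -0.11 with upper-quartile factors; and the let-7i hairpin at 0.034 with no scaling and 0.015 with all entries. For Puber against Pre-puber they were let-7e at -0.070 with upper-quartile factors, and with all entries let-7e at -1.78 and let-7f at -1.22, and let-7g at 0.015 with no scaling. For Adult against Puber they were let-7a at 0.0034 with no scaling and let-7d at -0.27 with all entries. For Adult against Infant, with no scaling, let-7a was at 0.49, let-7c at 0.20 and let-7g at 0.55. For Sperm against Adult, let-7a was at -0.54 with DESeq2 and with its size factors, -1.51 with no scaling, -0.12 with upper-quartile factors, -0.93 with all entries and -0.55 with all 17 libraries. Leaving out 1 library moved let-7a between -0.073 and 0.22 and let-7c between -0.17 and 0.13 (Pre-puber against Infant), let-7a between -0.40 and 0.11, let-7c between -0.50 and 0.11, let-7d between -0.42 and 0.078 and let-7e between -0.18 and 0.41 (Puber against Pre-puber), and let-7a between -0.22 and 0.21 (Sperm against Adult). The cause of these changes was not tested. No paired analysis was possible because the groups compared share fewer than 2 replicate numbers.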

Other observations

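Another predicted hairpin holding the seed letters had at least 1000 counts, at 2009 over the 17 libraries, with the letters at base 44 of 87, outside the start of the hairpin. It had 0 to 4 counts in Infant, 8 to 58 in Pre-puber, 136 to 289 in Puber, 111 to 435 in Adult and 0 to 19 in Sperm. The remaining pair of hairpins with the letters held 43 and 27 counts.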
